A study of Mus musculus with 3 samples.

Results

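The genes described are 9 Toll-like receptors (*Tlr1*, *Tlr2*, *Tlr3*, *Tlr4*, *Tlr6*, *Tlr7*, *Tlr8*, *Tlr9* and *Tlr13*) and *Cd14*, chosen by gene symbol from the 32285 genes of the count matrices, and all 10 have exactly 1 row each. Their transcripts were counted in single droplet-captured bone marrow-derived macrophages (BMDMs), which are macrophages grown from bone marrow cells in medium conditioned by L929 cells, a source of the growth factor M-CSF. Macrophages grown from marrow of female C3H/HeN mice aged 6 to 8 weeks received PBS (Ctrl) or lipoproteins purified from *Borrelia burgdorferi* (*Bb*LP, 1 µg/mL). LP1 was collected after 1 hour and LP4 after 4 hours. The study's culture methods pool the marrow of several mice, while its single-cell methods name separate mice whose macrophages were treated independently. The Ctrl cells were collected together with the LP4 cells, so the 1 hour library has no control of its own time. Wells of a condition were pooled before capture, so each condition is 1 library, the spread between cultures was not measured, and no test between conditions was run.

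Toll-like receptors are transmembrane sensors of microbial molecules, and their signaling leads to NF-κB and, for some members, to interferon regulatory factors. TLR2 pairs with TLR1 or TLR6 on the cell surface to bind the lipid anchor of bacterial lipoproteins, and CD14 is a lipid-binding co-receptor that hands lipoproteins to TLR2 and lipopolysaccharide to TLR4. TLR4 senses lipopolysaccharide at the surface and is functional in C3H/HeN mice, unlike in the related C3H/HeJ strain. TLR3 (double-stranded RNA), TLR7 and TLR8 (RNA breakdown products), TLR9 (unmethylated CpG DNA) and TLR13 (a motif of bacterial ribosomal RNA) work in endosomes. *Tlr2*, *Tlr1*, *Tlr6* and *Cd14* are called the lipoprotein-sensing members below, and the 6 remaining genes the other members.

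Each transcript was counted once by its unique molecular identifier (UMI) at its 3′ end, so levels of different genes were compared without division by gene length, although 3′ ends may be captured unequally. The study's methods do not say whether reads from introns were counted, and levels of different genes were not adjusted for this. After the filters on cells, 6071 Ctrl, 5065 LP1 and 4670 LP4 cells remained, with 35688939, 52475723 and 61402275 UMIs and a median of 5133, 9343 and 11784 UMIs per cell. Levels are UMIs scaled to a library total of 1e+06 (CPM), and all 95% intervals cover counting error only. The libraries shared 3 to 9 barcode sequences per pair among these cells. Of 8 macrophage markers, *Csf1r*, *Cd68* and *Lyz2* were each seen in over 94.5% of the cells of every library, *Adgre1*, *Itgam* and *Fcgr1* in 38.0% to 87.9% of cells, and *Mertk* and *C1qa* in 15.0% to 24.3%. The markers did not differ in 1 direction. The level of *Csf1r* was lower in LP4 (421 CPM) than in Ctrl (769 CPM), and *Cd68*, *Mertk*, *C1qa* and, by little, *Lyz2* were lower as well. In contrast, *Adgre1* (252 CPM in LP4, 169 in Ctrl), *Itgam* (262, 185) and *Fcgr1* (244, 109) were higher. Markers of B cells, T cells and mast cells summed to at most 2.89 CPM each, and stromal markers to 4.29 CPM (Ctrl), 5.85 (LP1) and 19.7 (LP4), with 13 stromal-like cells in all. Neutrophil markers summed to 582 CPM (Ctrl), 480 (LP1) and 785 (LP4), mostly *S100a8*, *S100a9* and *Mmp8*. *Mmp8* was seen in 46.7%, 59.8% and 65.7% of the Ctrl, LP1 and LP4 cells, and *S100a8* in 11.4%, 11.5% and 20.3%. Only 32, 25 and 28 cells were neutrophil-like, so the sum does not stand for the number of neutrophils. In macrophage-like clusters alone, which leave out the neutrophil-like cells, the log2 ratio of LP4 to Ctrl was 1.51 for *Tlr2*, 2.28 for *Cd14* and -1.43 for *Tlr13*, close to the values of all cells given below.

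The sequence before the start of 3 members is shown because their levels took 3 different courses: *Tlr2* was higher at 4 hours, *Tlr8* was lower at 1 hour but not at 4 hours, and *Tlr13* was lower at both times. RefSeq promoter windows (build GRCm38.p6) were at hand for 7 of the 10 genes, namely *Tlr1*, *Tlr2*, *Tlr3*, *Tlr6*, *Tlr8*, *Tlr9* and *Tlr13*, with 2 start sites each for *Tlr1* and *Tlr6*. The windows were searched on both strands over the 250 bases before the start for the NF-κB consensus, the ISRE core GAAANNGAAA, AP-1 TGANTCA, C/EBP TTNNGCAA, PU.1 GAGGAA and TATAAA. Capitals mark the letters of a match, and only the bases that lie outside GENCODE exons of the gene are printed, 5′ to 3′ on the strand of the gene.
*Tlr2*, chr3:83841768-83841858, minus strand: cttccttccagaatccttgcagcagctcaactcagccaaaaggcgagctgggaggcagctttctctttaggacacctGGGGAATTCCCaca
*Tlr8*, chrX:167264330-167264579, minus strand: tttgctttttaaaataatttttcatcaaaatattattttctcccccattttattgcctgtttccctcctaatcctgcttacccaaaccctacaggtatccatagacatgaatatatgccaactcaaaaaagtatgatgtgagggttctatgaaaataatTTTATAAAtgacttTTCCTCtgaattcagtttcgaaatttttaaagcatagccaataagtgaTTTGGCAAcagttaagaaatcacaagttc
*Tlr13*, chrX:106143025-106143203, plus strand: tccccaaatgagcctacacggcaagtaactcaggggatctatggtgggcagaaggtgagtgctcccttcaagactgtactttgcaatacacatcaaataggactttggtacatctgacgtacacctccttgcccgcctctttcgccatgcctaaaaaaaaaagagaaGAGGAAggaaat

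In the *Tlr2* window the 11 capital letters hold 3 overlapping matches of the NF-κB consensus, 2 of them on the plus strand of the gene, and no other motif matched. The NF-κB consensus was found in 3.90% of 32841 promoter windows of the same length, and among the 7 members it matched in *Tlr2* and *Tlr3*. The *Tlr3* window lies wholly inside the GENCODE gene, with 178 of its 250 bases in exons. Its matches are therefore not upstream of the gene as annotated there. In *Tlr8* the capitals mark overlapping TATAAA matches on both strands, PU.1 on the opposite strand and C/EBP, found in 12.4%, 23.3% and 9.57% of all windows. In *Tlr13* they mark PU.1 alone, which also matched in *Tlr1*, *Tlr8* and *Tlr9*. The C/EBP motif matched in *Tlr3*, *Tlr6* and *Tlr8*, and AP-1, found in 6.75% of all windows, matched in *Tlr9*. The ISRE core, found in 2.98% of all windows, matched in 1 of the 2 *Tlr6* windows, the same that held the C/EBP match. That window also lies inside the GENCODE gene, and TATAAA matched in the other *Tlr6* window. A match is a match of letters, and binding of any factor was not measured.

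At 4 hours of *Bb*LP, *Tlr2* and *Cd14* were higher than in Ctrl among the lipoprotein-sensing genes, while *Tlr1*, the partner of TLR2 for triacylated lipoproteins, was lower and *Tlr6*, the partner for diacylated ones, was within counting error. Among the other members *Tlr3* was higher by over 2 times, *Tlr7* and, without thinning, *Tlr8* were higher by less, *Tlr4* was within counting error and *Tlr13* was lower by over 2 times. The division into lipoprotein-sensing and other members therefore did not divide the genes by direction. At 1 hour, *Cd14* was the 1 member past 2 times.

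**Figure D1:**
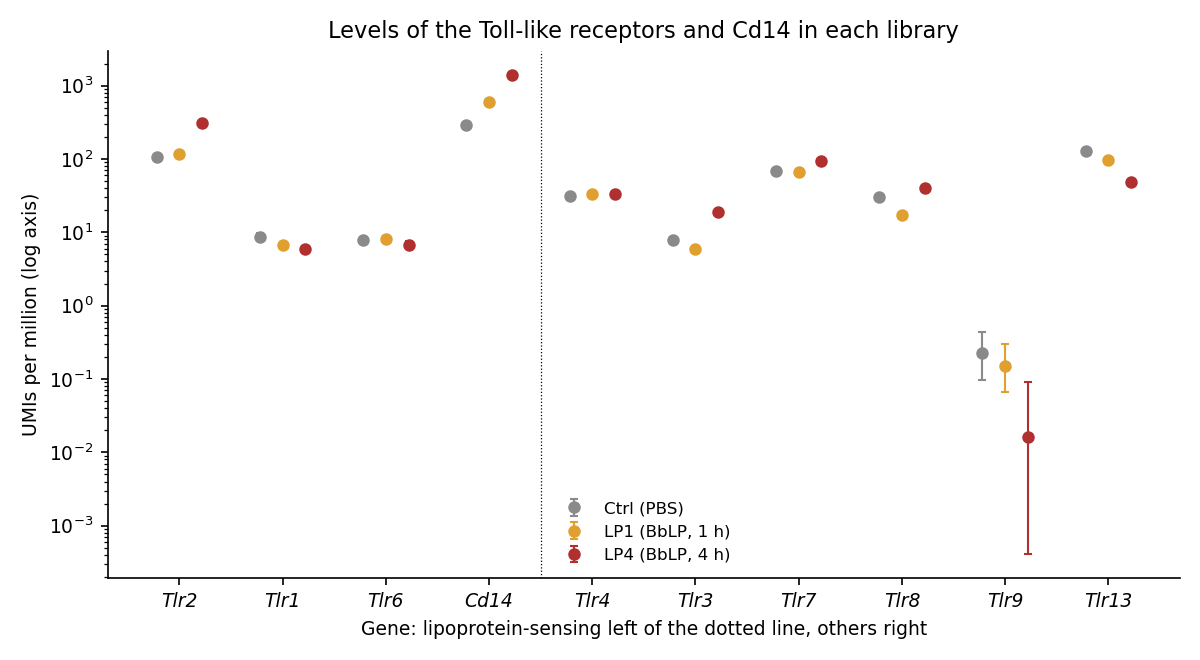
Level of each member in CPM (log axis) in the Ctrl, LP1 and LP4 libraries, with exact Poisson 95% intervals that are smaller than most points. *Cd14* went from 291 to 1399 and *Tlr2* from 107 to 309 between Ctrl and LP4, *Tlr13* from 129.7 to 48.5, and *Tlr9* lay under 0.25 in every library.

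*Cd14* (chr 18, 36725067 to 36726798, minus strand, GRCm38) was the most abundant of the 10 genes in each library. Its level was 291 CPM in Ctrl (95% interval 286 to 297), 597 in LP1 (590.5 to 604) and 1399 in LP4 (1390 to 1409). The 3 intervals lay far apart, and the level was higher at each later time. The log2 ratio to Ctrl was 1.04 (1.00 to 1.07) at 1 hour and 2.26 (2.24 to 2.29) at 4 hours, and LP4 over LP1 was 1.23 (1.21 to 1.25). With every cell thinned to 2000 UMIs, so that depth was the same, a UMI of *Cd14* was in 43.7% (Ctrl), 66.1% (LP1) and 87.0% (LP4) of the cells. The shares without thinning were 72.8%, 95.7% and 99.1%. The 90th percentile of thinned cells held 2, 3 and 6 UMIs, so the cells with the most *Cd14* RNA also held more of it in LP4.

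*Tlr2* (chr 3, 83836272 to 83841767, minus strand) was near its Ctrl level at 1 hour and far above it at 4 hours. It measured 107 CPM in Ctrl (104 to 111), 119 in LP1 (116 to 122) and 309 in LP4 (304 to 313). The log2 ratio to Ctrl was 0.15 (0.09 to 0.20) at 1 hour and 1.53 (1.48 to 1.58) at 4 hours, the latter a 2.88-fold difference. With thinned cells the value at 1 hour was 0.10 (-0.01 to 0.21). In contrast to *Cd14*, which was past 2 times at 1 hour, nearly all of the difference in *Tlr2* lay between 1 and 4 hours (LP4 over LP1, 1.38, 1.34 to 1.42). Thinned cells with a *Tlr2* UMI made up 20.1% of Ctrl, 20.9% of LP1 and 44.4% of LP4, against 39.6%, 56.7% and 88.0% without thinning. The 11 capital letters in the sequence shown above stand just outside the first exon of this gene.

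*Tlr1* and *Tlr6* lie beside each other on chr 5 (64924679 to 64933563 and 64952031 to 64960097, both on the minus strand), and both were counted at a small fraction of the *Tlr2* level. *Tlr1* measured 8.71 CPM in Ctrl (7.77 to 9.74), 6.69 in LP1 (6.01 to 7.43) and 5.85 in LP4 (5.26 to 6.48). Its log2 ratio to Ctrl was -0.38 (-0.61 to -0.16) at 1 hour and -0.58 (-0.80 to -0.35) at 4 hours, where the median over all genes was -0.15. *Tlr6* measured 7.76 CPM in Ctrl (6.87 to 8.73), 8.08 in LP1 (7.33 to 8.89) and 6.81 in LP4 (6.17 to 7.49). The 3 intervals of *Tlr6* overlapped, its log2 ratio of LP4 to Ctrl was -0.19 (-0.41 to 0.04), and under median-of-ratios scaling it was 0.02. Between the treated libraries (LP4 over LP1) its ratio was -0.25 (-0.45 to -0.05), an interval that left out 0. With thinned cells that ratio was 0.19 (-0.31 to 0.69). Thinned cells with a UMI made up 1.71%, 1.23% and 1.06% (*Tlr1*) and 1.75%, 1.37% and 1.56% (*Tlr6*) of Ctrl, LP1 and LP4, with 4.46% to 8.27% of unthinned cells for both genes. The number of *Tlr2* UMIs per *Tlr1* UMI was 12.3 in Ctrl (11.0 to 13.9), 17.7 in LP1 (15.9 to 19.8) and 52.8 in LP4 (47.5 to 58.7). The number per *Tlr6* UMI was 13.8 in Ctrl (12.2 to 15.7), 14.7 in LP1 (13.3 to 16.2) and 45.3 in LP4 (41.1 to 50.1). The transcript of the shared chain of the receptor pair was thus counted far more often per partner transcript at 4 hours.

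*Tlr4* (chr 4, 66827584 to 66930284, plus strand) measured 31.3 CPM in Ctrl (29.5 to 33.2), 33.2 in LP1 (31.7 to 34.8) and 33.6 in LP4 (32.2 to 35.1). The 3 intervals overlapped, and the log2 ratio to Ctrl was 0.09 (-0.02 to 0.19) at 1 hour and 0.10 (-0.00 to 0.21) at 4 hours. Under TMM and median-of-ratios scaling, which moved the median of all genes by 0.17 and 0.21, the second value was 0.27 and 0.31. Thinned cells with a *Tlr4* UMI made up 6.14%, 6.93% and 6.59% of Ctrl, LP1 and LP4, and unthinned cells 15.6%, 26.1% and 28.3%. Since *Cd14* differed and *Tlr4* hardly did, the number of *Cd14* UMIs per *Tlr4* UMI was 9.29 (Ctrl), 18.0 (LP1) and 41.6 (LP4).

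*Tlr3* (chr 8, 45395665 to 45411080, minus strand) and *Tlr8* (chr X, 167242696 to 167264329, minus strand) were, over all UMIs, lower than Ctrl at 1 hour and higher at 4 hours. *Tlr3* measured 7.76 CPM in Ctrl (6.87 to 8.73), 5.91 in LP1 (5.27 to 6.60) and 19.1 in LP4 (18.0 to 20.2). Its log2 ratio to Ctrl was -0.39 (-0.63 to -0.15) at 1 hour and 1.30 (1.11 to 1.49) at 4 hours, and with thinned cells the second value was 0.97, just under 2 times. An unnamed antisense transcript overlaps the 5′ end of *Tlr3*. *Tlr8* measured 30.01 CPM in Ctrl (28.2 to 31.9), 17.1 in LP1 (16.0 to 18.3) and 39.9 in LP4 (38.4 to 41.6). Its log2 ratio was -0.81 (-0.94 to -0.68) at 1 hour and 0.41 (0.31 to 0.52) at 4 hours, and between the treated libraries (LP4 over LP1) it was 1.22 (1.11 to 1.33). With thinned cells the *Tlr8* ratio at 4 hours was 0.18 (-0.04 to 0.39), an interval that holds 0, and with every cell weighted equally it was 0.23. Thinned cells count equally and held 343 (LP4) and 390 (Ctrl) UMIs of *Tlr8*, against 2453 and 1071 without thinning. Among them a higher level of *Tlr8* at 4 hours was not detectable. Thinned cells with a *Tlr3* UMI made up 1.78%, 0.93% and 3.52% of Ctrl, LP1 and LP4 (unthinned 4.23%, 5.71% and 20.2%), and those with a *Tlr8* UMI 6.25%, 3.54% and 6.75% (unthinned 15.5%, 14.8% and 29.2%).

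*Tlr7* (chr X, 167304929 to 167330558, minus strand) lies next to *Tlr8* in the genome, and unlike *Tlr8* it did not differ from Ctrl beyond counting error at 1 hour. It measured 68.2 CPM in Ctrl (65.5 to 70.9), 67.4 in LP1 (65.2 to 69.7) and 94.7 in LP4 (92.2 to 97.1). The log2 ratio to Ctrl was -0.02 (-0.09 to 0.06) at 1 hour, turning to 0.06 under TMM scaling, and 0.47 (0.40 to 0.54) at 4 hours. Thinned cells with a *Tlr7* UMI made up 13.5%, 12.8% and 17.5% of Ctrl, LP1 and LP4, and unthinned cells 29.6%, 43.8% and 61.8%.

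*Tlr13* (chr X, 106143204 to 106160493, plus strand), the sensor of bacterial ribosomal RNA, was the most abundant receptor transcript in Ctrl. It was the 1 compared member that was lower by more than 2 times in LP4. It measured 129.7 CPM in Ctrl (126 to 133), 98.2 in LP1 (95.5 to 101) and 48.5 in LP4 (46.8 to 50.3). The log2 ratio to Ctrl was -0.40 (-0.46 to -0.34) at 1 hour and -1.42 (-1.49 to -1.35) at 4 hours, and the 2 comparisons share the Ctrl library. Between the treated libraries, LP4 over LP1 was -1.02 (-1.08 to -0.95). Thinned cells with a *Tlr13* UMI made up 22.4%, 17.5% and 8.54% of Ctrl, LP1 and LP4, and unthinned cells 48.4%, 58.0% and 37.4%. *Tlr13* was thus seen in fewer LP4 cells than Ctrl cells even without thinning, although the LP4 cells were the most deeply counted.

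*Tlr9* (chr 9, 106222598 to 106226883, plus strand) was counted 8 times in Ctrl, 8 times in LP1 and 1 time in LP4. That is 0.224 CPM in Ctrl (0.0968 to 0.442), 0.152 in LP1 (0.0658 to 0.3004) and 0.0163 in LP4 (0.000412 to 0.0907). It did not reach the minimum of 20 UMIs in any pair of libraries and was not compared.

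**Figure D2:**
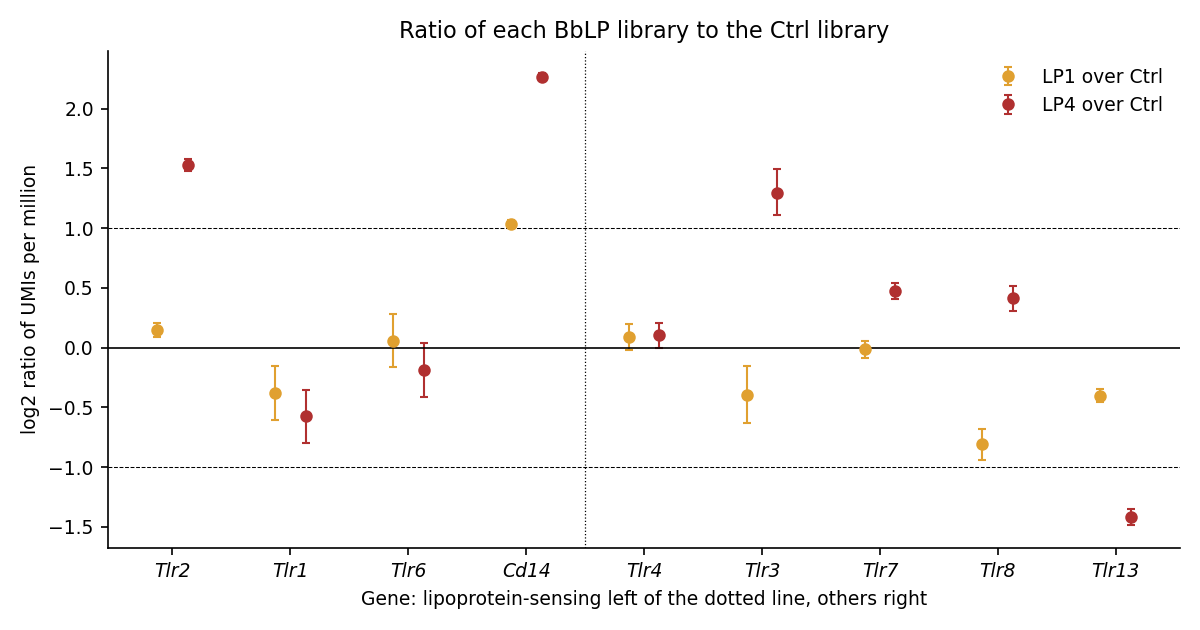
log2 ratio of CPM of LP1 over Ctrl and LP4 over Ctrl for the 9 members with enough UMIs, with exact 95% counting intervals; dashed lines mark 2 times and the 2 series share the Ctrl library. *Cd14* and *Tlr2* reached 2.26 and 1.53 at 4 hours, *Tlr3* and *Tlr8* lay on opposite sides of 0 at the 2 times, and *Tlr13* reached -1.42.

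Over the members, 3 of the 9 compared genes were at least 2 times higher in LP4 than in Ctrl (*Tlr2*, *Cd14* and *Tlr3*), where 11.6% of the 14361 genes with at least 20 UMIs in these libraries were, and 1 (*Tlr13*) was at least 2 times lower, where 15.6% were. In LP1 against Ctrl, 1 of 9 was at least 2 times higher (*Cd14*), against 1.45% of 14085 genes, and 0 of 9 at least 2 times lower, against 3.15%. In LP4 against LP1, 4 of 9 were at least 2 times higher (*Tlr2*, *Cd14*, *Tlr3* and *Tlr8*), against 10.9% of 14506 genes, and 1 lower (*Tlr13*), against 12.5%. The median log2 ratio of LP4 to Ctrl was 0.67 over the 4 lipoprotein-sensing genes and 0.41 over the 5 compared others, with -0.15 over all genes. For LP1 over Ctrl the medians were 0.10 for the 4 and -0.39 for the 5, with -0.04 over all genes. With so few genes a median stands for 1 or 2 of them, and within the lipoprotein-sensing genes the values at 4 hours ran from -0.58 (*Tlr1*) to 2.26 (*Cd14*).

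On the scale of UMIs per cell, which moves with depth and with the RNA content of a cell, the order of the libraries was not the same for every gene. *Tlr13* was at 0.762, 1.02 and 0.637 UMIs per cell in Ctrl, LP1 and LP4, and stayed lowest in LP4. *Tlr1* was at 0.0512, 0.0693 and 0.0769, higher in LP4 than in Ctrl, where its share of all UMIs was lower. *Tlr4* was at 0.184, 0.344 and 0.442. *Tlr3* was at 0.0456, 0.0612 and 0.251, and *Tlr8* at 0.176, 0.177 and 0.525. On this scale neither *Tlr3* nor *Tlr8* was lower in LP1 than in Ctrl. A larger RNA content of LP4 cells and a deeper count of them cannot be told apart in these files.

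The make-up of the receptor RNA was different in LP4. All 9 receptors summed to 391 CPM (Ctrl), 355 (LP1) and 557 (LP4). Of these UMIs, *Tlr13* held 33.2% in Ctrl (32.4 to 34.0), 27.6% in LP1 (27.0 to 28.3) and 8.70% in LP4 (8.41 to 9.01). *Tlr2* held 27.4% (26.7 to 28.2), 33.4% (32.7 to 34.0) and 55.4% (54.9 to 55.9). The endosomal receptors *Tlr3*, *Tlr7*, *Tlr8*, *Tlr9* and *Tlr13* together held 60.3% (Ctrl), 53.1% (LP1) and 36.3% (LP4), so the surface receptors held the larger share only at 4 hours. In level, the endosomal receptors summed to 236, 189 and 202 CPM and the surface receptors to 155, 167 and 355 CPM.

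**Figure D3:**
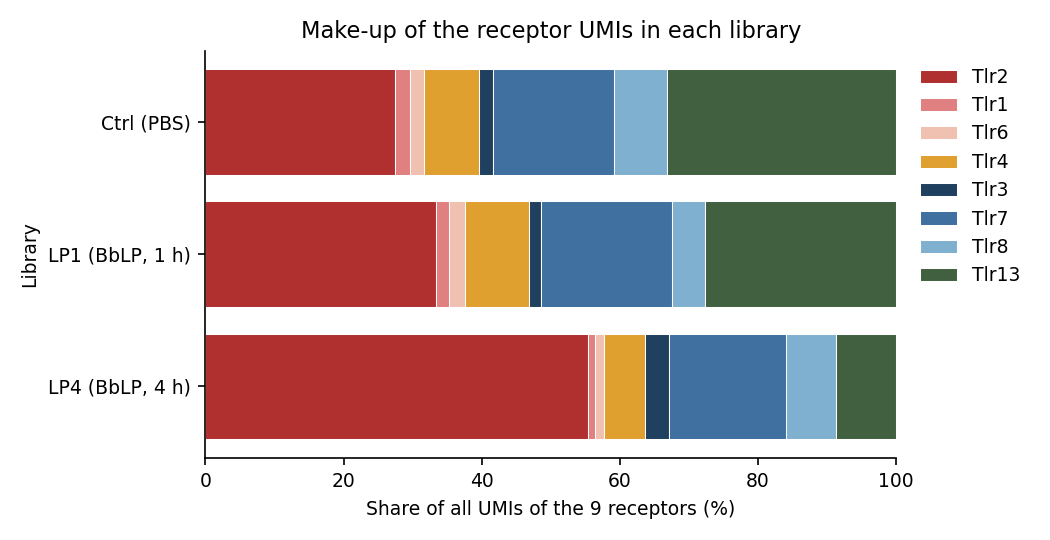
Share of each receptor among all UMIs of the 9 receptors in each library, in percent (*Tlr9*, under 0.1%, is not drawn). *Tlr13* held 33.2% and *Tlr2* 27.4% in Ctrl, and 8.70% and 55.4% in LP4.

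The order of the levels changed with it. In Ctrl the order was *Tlr13*, *Tlr2*, *Tlr7*, then *Tlr4* and *Tlr8*, whose intervals overlapped, then *Tlr1*, *Tlr6* and *Tlr3*, whose intervals also overlapped, and *Tlr9*. In LP1 it was *Tlr2*, *Tlr13*, *Tlr7*, *Tlr4* and *Tlr8*, then *Tlr6*, *Tlr1* and *Tlr3*, of which *Tlr6* overlapped *Tlr1* and *Tlr1* overlapped *Tlr3*. In LP4 it was *Tlr2*, *Tlr7*, *Tlr13*, *Tlr8*, *Tlr4* and *Tlr3*, then *Tlr6* and *Tlr1*, which overlapped. *Tlr3* had thus left the lowest group at 4 hours.

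Within single cells the receptors were seen sparsely. After thinning to 2000 UMIs, 45.8% (Ctrl), 49.9% (LP1) and 34.9% (LP4) of the cells held no UMI of any of the 9 receptors, and 2.99%, 1.92% and 3.63% held 3 or more different ones. *Tlr2* and *Cd14* were seen together in 10.3% of Ctrl cells (9.53 to 11.1), where the product of their shares is 8.79%. In LP1 the joint share was 15.7% (14.7 to 16.7) beside a product of 13.8%, and in LP4 39.3% (37.9 to 40.7) beside 38.7%. *Tlr2* and *Tlr13* were seen together in 4.29%, 3.29% and 3.63% of cells, beside products of 4.50%, 3.67% and 3.79%. *Tlr2* and *Tlr1* were seen together in 18, 14 and 19 cells, beside 20.5, 13.0 and 21.8 from the product, and *Tlr2* and *Tlr6* in 26, 10 and 27 cells, beside 20.9, 14.4 and 32.0, numbers too small at this depth to show whether the partners are held by the same cells.

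**Figure D4:**
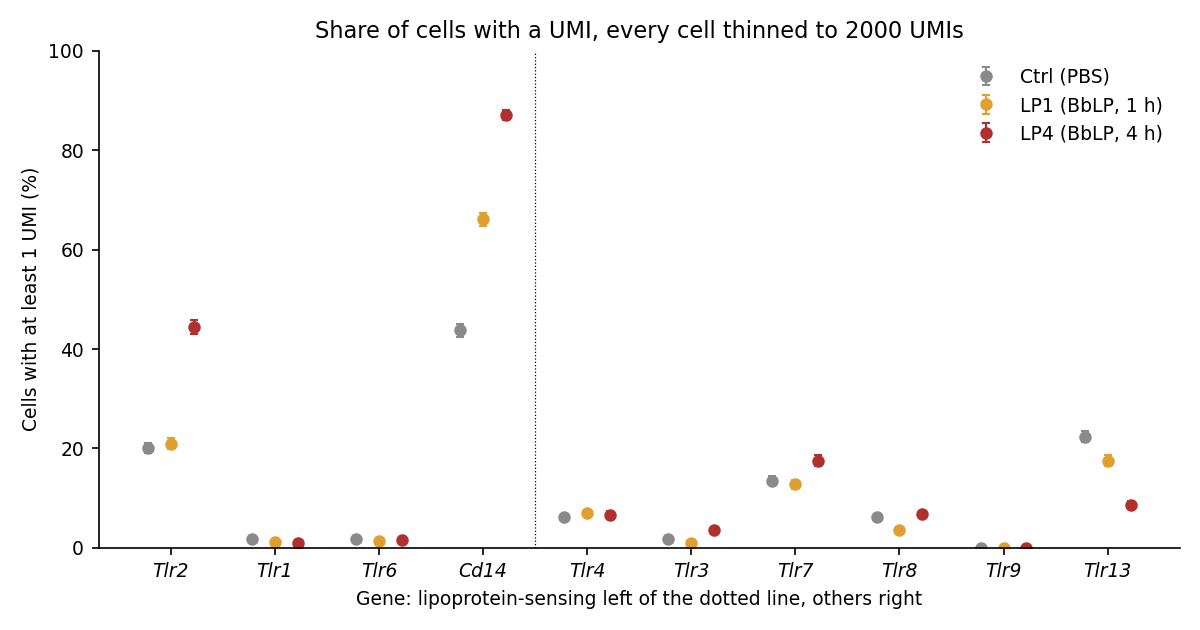
Share of cells with at least 1 UMI of each member, every cell thinned to 2000 UMIs, with exact binomial 95% intervals (5949 Ctrl, 5052 LP1 and 4625 LP4 cells). *Cd14* reached 87.0% and *Tlr2* 44.4% of LP4 cells, and *Tlr13* was seen in 22.4% of Ctrl and 8.54% of LP4 cells.

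Free RNA in the droplets can give a UMI to a cell that does not express the gene. The neutrophil-like cells (21 (Ctrl), 21 (LP1) and 28 (LP4) after thinning, median 3947, 6261 and 9262 UMIs against 5194, 9353 and 11838 in all thinned cells) are a class unlike macrophages here, but neutrophils are known to express *Tlr2*, *Tlr4* and *Cd14*. The stromal-like cells are unlike macrophages too, but are fewer. In the 7 stromal-like cells of LP4, *Cd14* was at 169 CPM (107 to 254), beside 1399 in all LP4 cells. The neutrophil-like cells held a UMI of *Cd14* in 5, 11 and 22 cells and of *Tlr2* in 2, 2 and 7 cells. A UMI of *Tlr13* was in 2, 0 and 3 of them and of *Tlr7* in 1, 0 and 2. *Tlr1*, *Tlr3*, *Tlr8* and *Tlr9* were in 0 of 21, 0 of 21 and 0 of 28 cells, which at 3 counts allows a share of up to 14.3%, 14.3% and 10.7% of cells with a UMI (upper exact binomial limits 16.1%, 16.1% and 12.3%), so the low shares of these genes in all cells could not be told from background in this way. By level, *Tlr3* and *Tlr8* had no UMI in the unthinned neutrophil-like cells either. In LP4 the upper limit of each was 15.4 CPM, under the 19.1 (*Tlr3*) and 39.9 (*Tlr8*) of all LP4 cells. In Ctrl and LP1 the upper limits, 35.3 and 26.2 CPM, were above the levels of all cells. Whether free RNA gave UMIs of these genes was not tested.

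Cells were clustered without the members and without genes that differed by 1.5 times or more between libraries, and 8 clusters kept 50 or more cells from each condition. Clusters A to F were macrophage-like, G was cycling-like (histone and mitosis genes) and I was dendritic cell-like (*H2-Eb1*, *H2-Ab1*, *H2-Aa* and *Cd74*). Cluster C held 1504 Ctrl cells, 1065 LP1 cells and 82 LP4 cells, so its LP4 values rest on few cells. Cluster H, left out of this comparison, held 56, 42 and 871. Whether cells changed cluster with treatment was not tested, so the ratios within C may not compare like cells. The leading genes of a cluster were ranked against all other cells with the libraries pooled. In C and H, which are uneven between libraries, they cannot be told apart from genes that differ by treatment. *Cd14*, *Tlr2*, *Tlr3* and *Tlr7* were higher in LP4 than in Ctrl in 8 of 8 clusters and *Tlr13* was lower in 8 of 8, each time with an interval that left out 0. With the coarser resolution of 0.3, which gave 5 such clusters, the directions held in 5 of 5, but the interval left out 0 in 3 of 5 for *Tlr7* (lowest ratio 0.05) and in 4 of 5 each for *Tlr3* and *Tlr13*. *Tlr1* was lower in 6 of 8 clusters, in 2 of them beyond counting error, and *Tlr6* was lower in 5 of 8, in none of them beyond counting error.

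*Tlr2* differed most between clusters in Ctrl, and least in LP4. In Ctrl its level ran from 14.7 CPM in cluster F (*Mmp9*, *Ctsk* and *Itgb3* among its leading genes) to 237 CPM in cluster C (*Apoe*, *Slc9a9* and *Nr4a2*), a 16.1-fold range. In LP4 it ran from 154 CPM in cluster F to 379.7 in cluster A, a 2.46-fold range. The log2 ratio of LP4 to Ctrl was accordingly 3.39 in cluster F and 0.67 in cluster C, with intervals far apart. At 1 hour the *Tlr2* ratio was above 0 in 8 of 8 clusters, from 0.10 in B to 0.55 in F, and in 6 of them beyond counting error.

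*Cd14* had a more even course. Its log2 ratio of LP4 to Ctrl ran from 1.88 (1.78 to 1.97) in cluster D to 2.64 (2.48 to 2.80) in cluster F, and at 1 hour from 0.95 in B to 1.20 in F. Its level was lowest in cluster F in all libraries, with 94.6, 218 and 590 CPM in Ctrl, LP1 and LP4. *Tlr13* was at 95.7 to 151 CPM over the clusters of Ctrl and at 30.02 to 90.8 in LP4. The *Tlr13* ratio of LP4 to Ctrl ran from -2.07 (-2.33 to -1.82) in cluster E to -0.71 (-0.87 to -0.54) in cluster F, and at 1 hour it was below 0 beyond counting error in 8 of 8 clusters, from -0.59 to -0.28.

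*Tlr4*, which hardly differed over all cells, differed in several clusters in opposite directions. Its log2 ratio of LP4 to Ctrl was 1.35 (0.96 to 1.76) in cluster D, 0.95 (0.61 to 1.29) in F and 0.47 (0.10 to 0.84) in G, but -0.26 (-0.47 to -0.05) in A. The interval in A ended at -0.05, and TMM and median-of-ratios scaling moved the median of all genes up by 0.17 and 0.21. These scalings were not applied within clusters, so the lower level in A rests on CPM. In Ctrl its level ran from 14.8 CPM in cluster D to 50.2 in C, a 3.40-fold range, and in LP4 from 26.4 in E to 47.8 in F. *Tlr8* was below its Ctrl level at 1 hour in 8 of 8 clusters and beyond counting error in 6. At 4 hours it was above Ctrl beyond counting error in 4 clusters, up to 1.53 (1.21 to 1.86) in F and 1.47 (1.05 to 1.91) in D, and was -0.52 (-1.20 to 0.10) in C. *Tlr7* was highest in cluster C in every library (116, 121 and 157 CPM), and its ratio of LP4 to Ctrl ran from 0.37 in A to 1.49 in F. *Tlr3* ran from 0.95 (0.47 to 1.46) in B to 2.25 (0.20 to 5.40) in I, the latter on 2 and 19 UMIs.

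**Figure D5:**
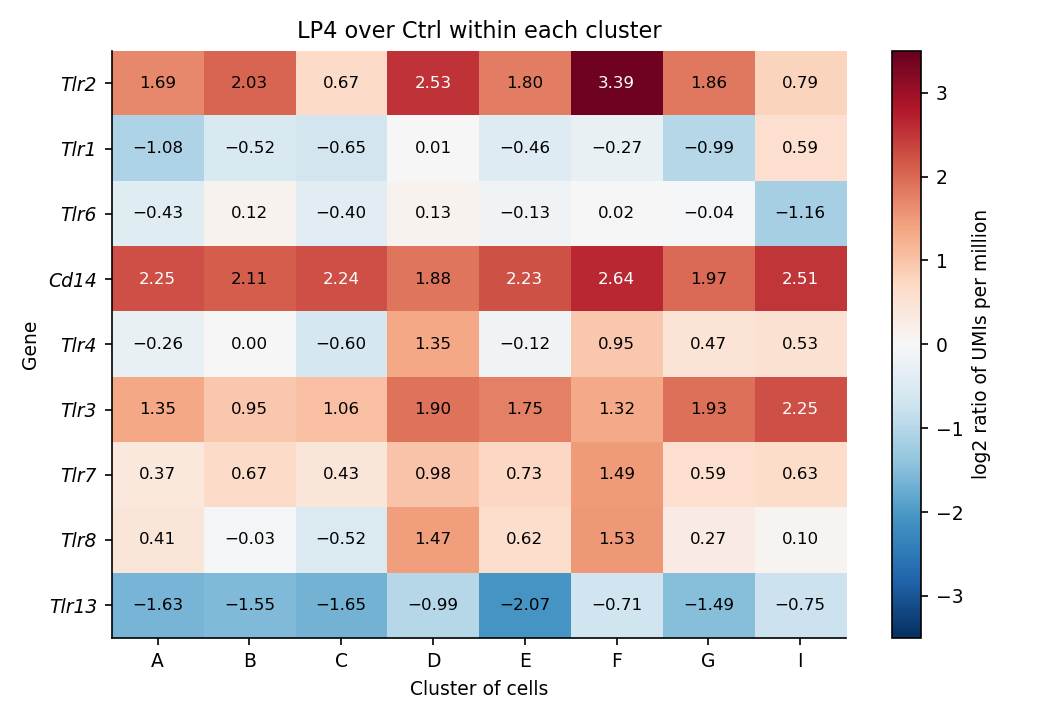
log2 ratio of CPM of LP4 over Ctrl for 9 members (rows) within clusters A to G and I (columns); red is higher in LP4 and blue lower. Cluster F had the highest values of *Tlr2* (3.39), *Cd14* (2.64), *Tlr7* (1.49) and *Tlr8* (1.53) and the value of *Tlr13* nearest to 0 (-0.71).

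The genes whose levels were most like those of each member were ranked by Pearson's r of log2(CPM + 1) over 24 points (8 clusters in 3 libraries) among 3642 genes. The points of a library share its cells, depth and treatment, so any gene that differs between the libraries scores high, and r is a description. For *Tlr2* they were *Aoah* (0.98), *Arhgap26* (0.95) and *Ccl3* (0.94). *Aoah*, the enzyme that removes acyl chains from lipopolysaccharide, was at 120 CPM (Ctrl), 118 (LP1) and 464 (LP4). For *Cd14* they were *Socs3* (0.94), *Sod2* (0.94) and *Zfp36* (0.93), a feedback inhibitor of cytokine receptors, a mitochondrial superoxide dismutase and an mRNA decay factor. For *Tlr3* they were *Lgals9* (0.97), *Dtx3l* (0.95) and *Usp18* (0.95), and *Usp18*, a protease that removes ISG15, was at 18.0, 16.4 and 189 CPM. For *Tlr13* they were *Plekho2* (0.95), *Lyst* (0.92) and *Cic* (0.92), with *Plekho2* at 305, 252 and 119 CPM. For *Tlr7* they were *Ptprj* (0.91), *Mdfic* (0.90) and *Gch1* (0.89), for *Tlr8* *Rasa4* (0.88), *Lyn* (0.86) and *Tmcc3* (0.84), and for *Tlr4*, the least well matched, *Arid5b* (0.76), *Dclre1c* (0.74) and *Tle4* (0.70).

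A list of 23 further genes held the receptors *Tlr5*, *Tlr11* and *Tlr12* and 20 genes known to help, process or restrain Toll-like receptors. Those 20 had enough UMIs in Ctrl and LP4 to be compared, and the 3 receptors did not. The median log2 ratio of LP4 to Ctrl over the 20 was 0.15, with -0.15 over all genes. 5 were at least 2 times higher in LP4 (*Ly96*, *Lbp*, *Unc93b1*, *Ctsl* and *Lgmn*) and 1 was at least 2 times lower (*Sigirr*), where 11.6% and 15.6% of all genes were. In LP1 against Ctrl 1 of 19 was at least 2 times higher (*Lgmn*) and 0 were lower, against 1.45% and 3.15% of all genes, and in LP4 against LP1 1 of 20 was higher (*Lbp*) and 0 were lower, against 10.9% and 12.5%.

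Of the surface partners, *Ly96*, whose protein binds lipopolysaccharide on TLR4, was at 9.89 CPM (Ctrl), 15.9 (LP1) and 26.4 (LP4), with a log2 ratio at 4 hours of 1.42 (1.25 to 1.59). *Ly96* thus differed where *Tlr4* itself hardly did. *Lbp*, a lipopolysaccharide-binding protein that also passes lipoproteins to CD14, was at 0.252, 0.114 and 0.961 CPM, with a ratio of 1.93 (0.91 to 3.13) on few UMIs. *Cd36*, a scavenger receptor that assists the TLR2 and TLR6 pair, was at 694, 791 and 799.7 CPM, a ratio of 0.20 (0.18 to 0.23) at 4 hours.

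Of the proteins that carry and process the endosomal receptors, *Unc93b1*, the escort of nucleic acid-sensing receptors to endosomes, was at 108 CPM (Ctrl), 208 (LP1) and 249 (LP4). Its log2 ratio was 0.94 (0.89 to 1.00) at 1 hour and 1.20 (1.15 to 1.26) at 4 hours, so most of the difference was present at 1 hour. *Hsp90b1*, the chaperone that folds most of the receptors, was at 505, 503 and 500.4 CPM, a ratio of -0.01 (-0.04 to 0.01), and its co-chaperone *Cnpy3* was at 39.4, 34.1 and 23.8 CPM, a ratio of -0.73 (-0.83 to -0.62). The proteases that cut endosomal receptors were not alike: *Lgmn* was at 184, 424 and 793 CPM with a ratio of 2.10 (2.07 to 2.14) at 4 hours, and *Ctsl* at 4454, 5898 and 9483 CPM with a ratio of 1.09 (1.08 to 1.10). *Ctss* was at 1915, 1828 and 2579 CPM, a ratio of 0.43 (0.42 to 0.44). *Ctsb* was at 6473, 5391 and 5697 CPM, a ratio of -0.18 (-0.19 to -0.18), near the median of -0.15 over all genes.

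Of the remaining roles, the endosomal scaffold *Slc15a4* was at 34.2 CPM (Ctrl), 34.6 (LP1) and 26.0 (LP4), a ratio of -0.40 (-0.50 to -0.29) at 4 hours. *Pld4*, an exonuclease that degrades nucleic acid ligands, was at 268, 207 and 172 CPM, a ratio of -0.64 (-0.68 to -0.60). *Sigirr*, an inhibitory member of the interleukin-1 receptor family, was at 1.40, 0.972 and 0.651 CPM, a ratio of -1.10 (-1.74 to -0.48) on few UMIs. The nucleases *Rnaset2a* and *Rnaset2b* are near-identical copies whose reads may be split, and their values are not read further. *Tlr5*, *Tlr11* and *Tlr12*, the receptors left out of the members, had at most 0.0762 CPM in any library.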

How the data were processed

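Single-cell UMI counts were measured in 1 library each of Ctrl, LP1 and LP4. Cell Ranger 7.1.0 produced these counts on mm10, per the file headers and the labels, and the authors deposited them without normalization for the barcodes called as cells. The members and gene lists were chosen with earlier results of these data known.

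A cell was kept above 500 UMIs and 500 genes if mitochondrial UMIs made up less than 5%, the limits the study states. These limits left 15806 of 16281 barcodes, more cells than the study took forward, so the cells are not the same set. Sums per library were expressed as CPM. The 95% intervals were exact Poisson (CPM), conditional exact binomial (log2 ratios) and Clopper-Pearson (shares). A count of 0 took a floor of 3 counts. A gene was compared if the 2 libraries held 20 or more of its UMIs together. Thinning left out 122 Ctrl, 13 LP1 and 45 LP4 cells. Clustering used 2000 variable genes of 5288 that differed under 1.5 times between libraries, centred within libraries, 30 components, 20 neighbours and Leiden resolution 0.5 (seed 20). A cluster with 3 or more markers of a cell type among its 10 leading genes took that name. Otherwise, a cluster with 3 or more macrophage markers, each in at least 50% of its cells, was called macrophage-like. All macrophage-like clusters were named by the second rule, which clusters G and I also met. Doublets were not removed in the main values, and scores served 1 alternative.

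Named were the 10 members, list genes past 2 times between Ctrl and LP4 with at least 1 of each role, and the 3 genes most like each member of at least 10 CPM in 1 library, among genes of at least 50 CPM. Positions are from GENCODE vM21 (GRCm38) and promoters from RefSeq (GRCm38.p6). Alternatives were other cell filters, scalings, cell weights, thinning depths and resolutions. The log2 ratio intervals were checked on counts simulated as Poisson, the counting model they assume, so spread beyond counting was not checked. Software was scanpy 1.11.5 and leidenalg 0.10.2 for clusters, edgeR 4.0.16 for TMM and scipy 1.17.1 for intervals (Python 3.11.15).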

Additional observations from a re-analysis of the deposited data

Results flagged for a closer look

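The log2 ratios of *Tlr3* and *Tlr8* to Ctrl had opposite signs at the 2 times, with intervals that left out 0. *Tlr3* was at -0.39 in LP1 and 1.30 in LP4, and *Tlr8* at -0.81 in LP1 and 0.41 in LP4. With cells thinned to 2000 UMIs the *Tlr8* value in LP4 was 0.18 (-0.04 to 0.39), no longer beyond counting error, while *Tlr3* was at -0.97 in LP1 and 0.97 in LP4. In UMIs per cell neither gene was lower in LP1 than in Ctrl (*Tlr3* 0.0612 and 0.0456, *Tlr8* 0.177 and 0.176). Within clusters the *Tlr3* ratio at 1 hour was below 0 in 6 of 8, in 2 of them beyond counting error. The ratios at both times share the Ctrl library, and the difference between the times was not tested, since each condition is 1 library.

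The log2 ratio of LP4 to Ctrl of *Tlr4* had opposite signs in different clusters of cells, again with intervals that left out 0. It was -0.26 in cluster A, 1.35 in cluster D, 0.95 in cluster F and 0.47 in cluster G. The interval in A ended at -0.05, and TMM and median-of-ratios scaling, not applied within clusters, moved the median of all genes up by 0.17 and 0.21. The negative sign in A therefore rests on CPM. The difference between clusters was not tested.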

How the results depend on the processing

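No paired analysis was possible because each condition is 1 library, and for the same reason no library could be left out. Of 56 summary values under the alternatives, 49 stayed within counting error of the reported value, or within 1.5 times for counts, and 7 did not. TMM scaling, which moved the median of all genes by 0.17 in LP4 over Ctrl, gave medians of 0.84 (lipoprotein-sensing) and 0.58 (others), and median-of-ratios scaling, which moved it by 0.21, gave 0.87 and 0.62. With cells thinned to 2000 UMIs the median of the others at 4 hours was 0.18 and that of the lipoprotein-sensing genes at 1 hour was -0.13, below 0 where the reported value was 0.10. With every cell weighted equally the median of the others was 0.23. The count of members at least 2 times higher in LP4 than in Ctrl was 3 under all alternatives except thinning, where it was 2 (*Tlr3* was just short of it), and the count lower was 1 throughout. Of 243 ratios of single members, 188 stayed within counting error and 54 moved beyond it without a called value changing sign. 1 changed sign, *Tlr6* in LP4 over LP1, which was -0.25 and became 0.19 (-0.31 to 0.69) with thinned cells. The thinned interval holds 0, so a reversed direction was not shown. Another 8 sign changes were of ratios within counting error: *Tlr6* in LP1 over Ctrl (0.06 to -0.36, thinned) and in LP4 over Ctrl (-0.19 to 0.02, median of ratios), *Tlr7* in LP1 over Ctrl (to 0.06 under both scalings), *Tlr4* in LP4 over Ctrl (to -0.00, equal weights), and *Tlr4* in LP4 over LP1 under 3 alternatives (from 0.02 to between -0.07 and -0.00). With thinned cells, which hold fewer UMIs, the intervals of *Tlr8* in LP4 over Ctrl and of *Tlr2* in LP1 over Ctrl held 0. Restricting to macrophage-like cells or removing the 5% of cells with the highest doublet scores left all 30 shares of cells within counting error, while other thinning depths moved most shares, since a share rises with depth. Of 36 lowest or highest ratios over clusters, 33 stayed within counting error at resolutions of 0.3 and 0.8; at 0.3 the lowest *Cd14* ratio was 2.00, the lowest *Tlr7* ratio 0.05 and the highest *Tlr13* ratio -0.45. The precision is limited most for *Tlr9*, *Tlr1*, *Tlr6* and *Tlr3*, which have the fewest UMIs.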

Other observations

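Cluster H was left out of the comparison between libraries because it held 56 Ctrl cells, 42 LP1 cells and 871 LP4 cells. Its leading genes include *Gbp4*, *Cxcl5*, *Il6* and *Serpinb2*. They were ranked with the libraries pooled, so in cluster H they cannot be told apart from genes that differ by treatment. In its LP4 cells *Cd14* was at 2441 CPM (2407 to 2476), above the highest value of the 8 compared clusters (1889 CPM in cluster C), and *Tlr2* at 338 CPM (325 to 351), within their range. *Tlr13* was at 27.8 CPM (24.3 to 31.8) in these cells, and the lowest of the 8 clusters, at 30.02, lay inside that interval.

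The neutrophil-like cells (32 Ctrl, 25 LP1 and 28 LP4 cells) had *Cd14* at 191 CPM in Ctrl (117 to 295), 419 in LP1 (319 to 540.1) and 1936 in LP4 (1764 to 2120). *Tlr2* was at 86.1 CPM (39.3 to 163), 78.1 (39.0 to 140) and 142 (98.2 to 198), and *Tlr8* and *Tlr3* had no UMI in any of them. These cells are few and may carry free RNA of the macrophages around them, which was not tested.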
